A study of Rattus norvegicus with 9 samples.

Results

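Kidneys of rats given furosemide, dehydration and the contrast medium iopromide were compared across genes with kidneys of untreated rats. The comparison uses 6 of the 9 libraries of the series, 3 control rats and 3 rats with contrast-induced acute kidney injury (CIAKI), with 1 library of whole-kidney RNA a rat. Control rats had no treatment. CIAKI rats received 200 mg/kg of the loop diuretic furosemide by the intragastric route, were dehydrated for 6 h and were then injected through the tail vein with iopromide, an iodinated X-ray contrast agent holding 370 mg I/mL, at 15 mL/kg. The rats weighed 180 to 200 g. The remaining 3 libraries, from rats given icariin before the same protocol, are not a group compared here. They entered the filter on low values, the estimate of the spread and the principal components. The features are the 16731 of 36267 in the gene table that reached at least 1 CPM (read counts scaled to the same total in each library) in at least 3 of the 9 libraries, 13441 of them Ensembl genes and 3290 genes assembled by the authors. All 3 parts of the protocol were given together, so an effect of the diuretic, of the water loss and of the contrast agent cannot be told apart, and no group in the series had the dehydration or the injection alone. Sex, strain, age and the time from contrast to tissue collection are not given in the labels used here, and so the stage of injury is not known.

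Contrast agents are filtered at the glomerulus and concentrated along the tubule while water is taken back. The proximal tubule, which recovers glucose, phosphate, amino acids and filtered protein, and the outer medulla, which works at low oxygen, are the regions in which contrast injury is classically described. A tubule cell that is injured but survives lowers its transport genes and turns on genes of adhesion, cytoskeleton and repair, while water loss by itself raises vasopressin-driven water channels and genes of osmolyte uptake.

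In all, 6903 features (41.3%) differed between CIAKI and control rats at an adjusted p below 0.05 in limma on log2(CPM + 1). Of all features tested, 20.8% were higher in CIAKI rats and 20.5% lower, and the median log2 fold change over all of them was 0.00. Among them 560 (3.35% of all tested) were at least 2-fold higher and 1092 (6.53%) at least 2-fold lower. The CIAKI and control libraries did not overlap for 8926 features (53.4%). All fold changes compare CIAKI with control as differences of log2(CPM + 1), a scale that shrinks the change of features with low values. A feature below 1 CPM in every library of a group met the filter only through other groups, which favours a difference in that direction. Among genes named below, Plk1 and Ccl2 were so in CIAKI rats, and Fgg, Krt23, Creb3l3, Mt1m and Cyp3a9 in control rats. In whole kidney RNA, fewer cells of a type and less RNA per cell cannot be told apart, and a rise in some genes lowers the share left for all others.

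The libraries held 64380578 to 83159767 reads counted on features. Control libraries lay close together on the first principal component of all 9 libraries (-29.7, -31.7 and -28.1). The CIAKI libraries lay apart from them at 60.1, 58.5 and 44.4. Of the assembled genes 24.4% passed the test, 6.2% higher and 18.1% lower, against 45.4% of the Ensembl genes, 24.4% higher and 21.0% lower. The shares differed by level. Among 6078 features with a mean of 1 to 10 CPM, 9.5% were higher and 22.3% lower in CIAKI rats, while among 7824 features of 10 to 100 CPM the shares were 27.3% and 17.4%. Precision rises with the level, and the part of counting error in these shares was not tested.

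**Figure D1:**
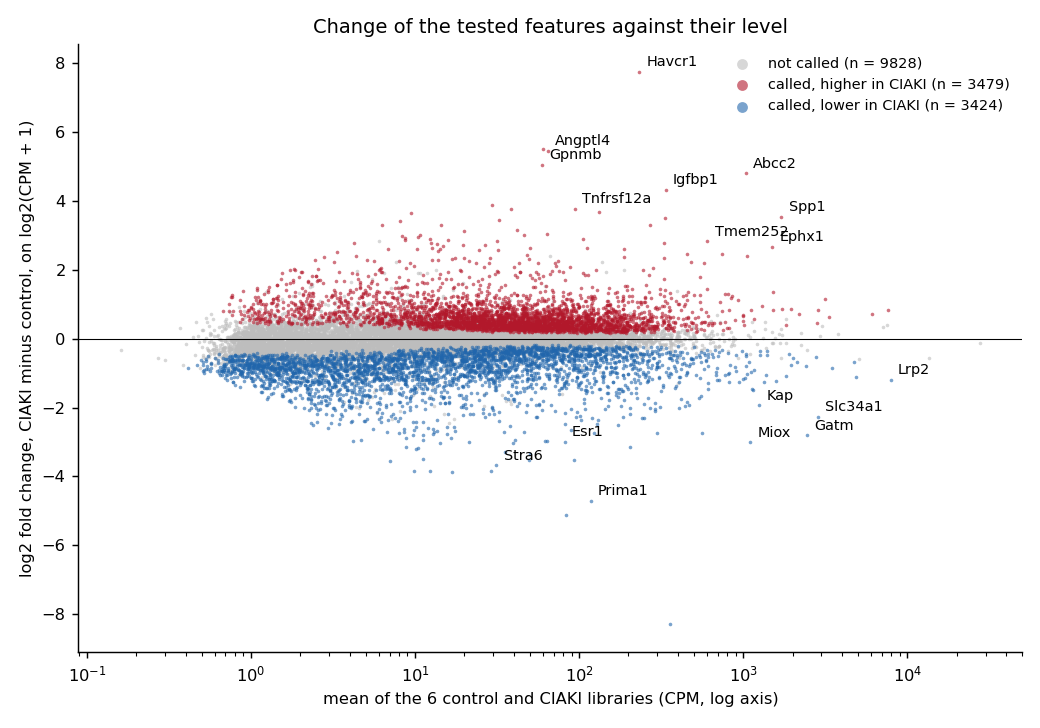
Log2 fold change (CIAKI against control, log2(CPM + 1) scale, vertical axis) against the mean level of the 6 libraries (CPM, log axis) for the 16731 features tested, with called features coloured by direction. The changes run from -8.30 to 7.76, and the labelled genes include Lrp2 at -1.19 and Ephx1 at 2.67.

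All called features with a higher mean took 139513 CPM more in CIAKI rats. The 12 features with the largest gain in mean CPM, 10 of them called, took 26411 CPM more, and the 12 with the largest loss, 9 of them called, gave up 35749 CPM. Large gains came from Ndrg1, a stress-response gene (0.84), from Ephx1, the microsomal epoxide hydrolase (2.67), and from Ugt1a7c, a glucuronosyltransferase (1.37). Dnase1, the secreted nuclease that degrades free DNA, stood at 299, 336 and 309 CPM in control and 1668, 2649 and 1060 CPM in CIAKI rats (log2 fold change 2.41, SE 0.30, adjusted p = 0.00041). Every CIAKI rat was more than 3-fold above every control rat for this gene, and CIAKI 2 was the highest. On the losing side, Gatm, which makes the creatine precursor guanidinoacetate, stood at 3831, 3930 and 4967 CPM in control and 422, 532 and 959 CPM in CIAKI rats (log2 fold change -2.81, SE 0.39, adjusted p = 0.0007). Hao2, a hydroxyacid oxidase of kidney peroxisomes, fell by 1.12, and Kap, the androgen-regulated protein of the proximal tubule, fell by 1.93. The largest loss of reads among features that did not pass was that of Gpx3, the plasma glutathione peroxidase made by the proximal tubule, at 16119, 14617 and 18126 CPM in control and 10962, 10407 and 11507 CPM in CIAKI rats (log2 fold change -0.57, SE 0.21, adjusted p = 0.058). The groups did not overlap for Gpx3, and it passed with a count model on recovered reads (adjusted p = 0.0031 in edgeR).

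**Figure D2:**
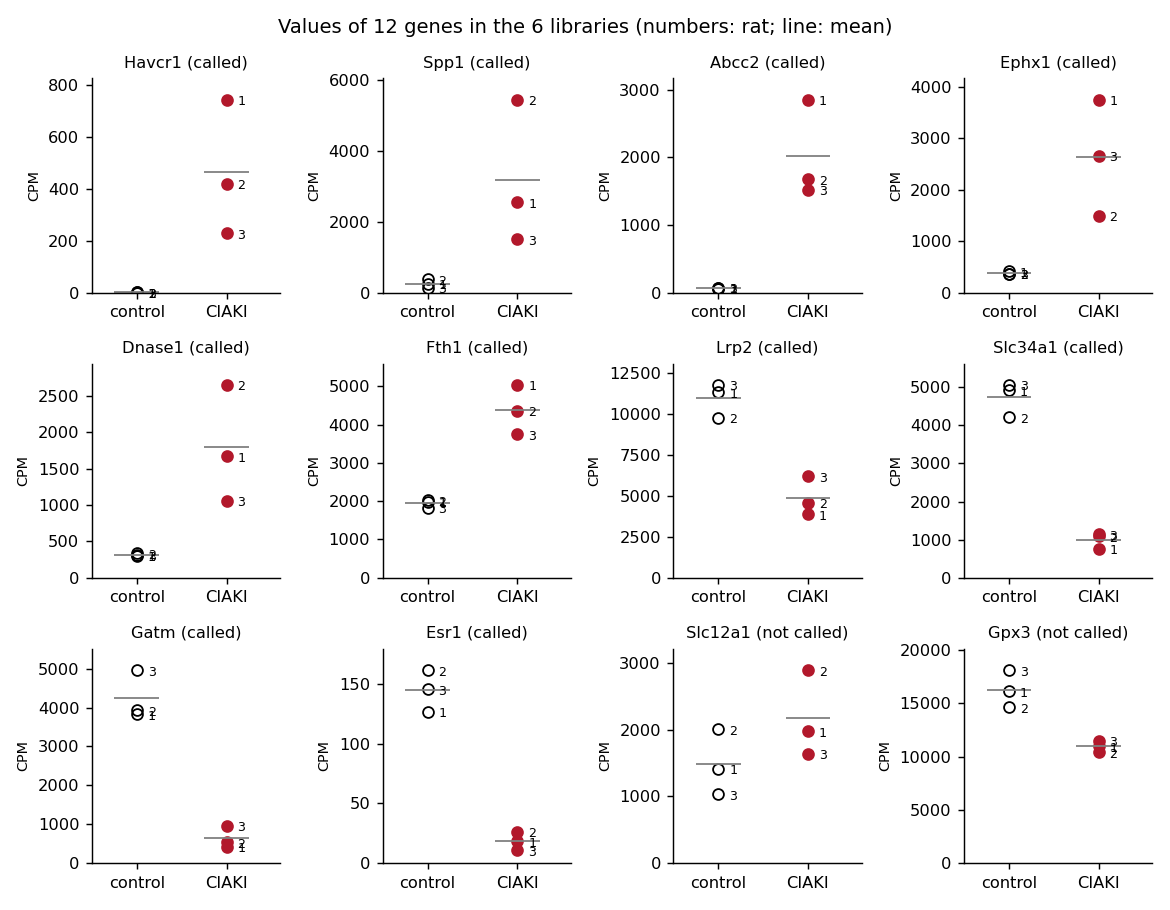
CPM (linear axes from 0) of 12 genes in the 3 control rats (open) and 3 CIAKI rats (filled), with 1 numbered point a rat and a line at the group mean. The 10 called genes and Gpx3 show no overlap of the groups, while those of Slc12a1 overlap.

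Along the tubule, most tested genes of the proximal segments fell. Of 24 tested genes of its convoluted part, 18 fell and 2 rose (median log2 fold change -0.69, against 0.00 over all features), and of 9 genes of its straight part 6 fell and 1 rose (median -0.91). Proximal tubule markers were abundant in control rats, as the kidney label implies, with Lrp2, the endocytic receptor megalin, at 9795 to 11793 CPM. Slc34a3, the second sodium-phosphate cotransporter of the brush border, stood at 194, 169 and 240.3 CPM in control and 32.9, 49.4 and 38.5 CPM in CIAKI rats (log2 fold change -2.30, SE 0.16, adjusted p = 3.8e-05). The glucose transporter gene of the early proximal tubule, Slc5a2, fell by 1.10 (399, 308 and 394 CPM in control and 174, 171 and 163 CPM in CIAKI rats). Slc7a13, an aspartate and glutamate transporter of the straight part, stood at 1658, 2114 and 1300 CPM in control and 398, 682 and 744 CPM in CIAKI rats (log2 fold change -1.50, SE 0.26, adjusted p = 0.0021). In each of these 3 genes the highest CIAKI rat lay below the lowest control rat. Cubn, which encodes cubilin, the binding partner of megalin, differed from Lrp2. It stood at 1693, 1512 and 2083 CPM in control and 1768, 1541 and 1503 CPM in CIAKI rats (log2 fold change -0.13, SE 0.13, adjusted p = 0.48), with overlapping groups, while Lrp2 stood at 11338, 9795 and 11793 CPM in control and 3876, 4572 and 6196 CPM in CIAKI rats. The members that rose in the convoluted list were Slc17a3 and Slc2a2. Slc17a3, a phosphate and urate transporter, stood at 264, 266 and 251 CPM in control and 738, 553 and 616 CPM in CIAKI rats (log2 fold change 1.28, SE 0.10, adjusted p = 5.1e-05), and Slc2a2, the basolateral glucose transporter, which was picked out after its values were seen, lay at 1.06. Among straight-part genes Slc5a8, a lactate and ketone body transporter, rose by 0.59.

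Enzymes of the brush border fell too. Of 19 tested, 11 fell and 1 rose (median -0.78). Alpl, the alkaline phosphatase of that membrane, stood at 532, 478 and 401 CPM in control and 87.5, 117 and 122 CPM in CIAKI rats (log2 fold change -2.11, SE 0.15, adjusted p = 3.9e-05), with every CIAKI rat far below the lowest control. Folh1, a folate hydrolase, fell by 1.89, Mme, the peptidase neprilysin, by 1.26, and Dpp4, a dipeptidyl peptidase, by 0.79. The member that rose was Ace, the angiotensin-converting enzyme. It stood at 15.4, 15.1 and 14.2 CPM in control and 22.7, 26.8 and 50.4 CPM in CIAKI rats (log2 fold change 1.03, SE 0.25, adjusted p = 0.01), with CIAKI 3 far above the other CIAKI rats.

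Genes of organic ion transport moved in both directions. Of 21 tested genes of organic ion uptake and efflux, 5 rose, near the 20.8% of all features, and 9 fell, against 20.5% of all features. Abcc2, the apical efflux pump MRP2 for glutathione and glucuronide conjugates, stood at 76, 60.7 and 68.4 CPM in control and 2853, 1675 and 1526 CPM in CIAKI rats (log2 fold change 4.81, SE 0.22, adjusted p = 6.7e-06). Abcb1a, which encodes the drug pump P-glycoprotein, stood at 26.2, 37.2 and 35 CPM in control and 123, 142 and 163 CPM in CIAKI rats (log2 fold change 2.09, SE 0.15, adjusted p = 4.1e-05). All 3 CIAKI rats were far above the controls for both pumps. Abcc6, a related transporter, was one of the pumps that fell (-1.21). The uptake carriers Slc22a8, the organic anion transporter OAT3, and Slco1a6 fell by 2.02 and 1.40.

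In the loop of Henle, Slc12a1, the cotransporter that furosemide blocks, stood at 1410, 2009 and 1030 CPM in control and 1978, 2895 and 1637 CPM in CIAKI rats (log2 fold change 0.56, SE 0.28, adjusted p = 0.14), with overlapping groups. Among genes of the thick ascending limb some fell. Of 12 tested, 6 fell and 0 rose (median -0.55). Casr, the calcium-sensing receptor, stood at 125, 133 and 99.6 CPM in control and 61.1, 22.6 and 57.7 CPM in CIAKI rats (log2 fold change -1.43, SE 0.32, adjusted p = 0.007), with CIAKI 2 the lowest. Cldn19, a tight junction protein needed for magnesium recovery, fell by 0.98, and Bsnd, the chloride channel subunit barttin, by 0.60. Cldn10, the sodium-selective claudin of this segment, lay at -0.79 with CIAKI 2 at 155 CPM inside the control range of 149 to 172 CPM. Its call was lost in 8 of 16 alternatives, including leaving out CIAKI 1 (adjusted p = 0.12).

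Further down, genes of the distal convoluted and connecting tubule were split, with 6 of 14 lower and 3 higher (median 0.03). Calb1, the calcium-binding protein calbindin, stood at 612, 550.5 and 534 CPM in control and 216, 202 and 239 CPM in CIAKI rats (log2 fold change -1.37, SE 0.11, adjusted p = 5.1e-05). Slc8a1, the sodium-calcium exchanger that moves calcium to the blood side, stood at 169, 185 and 232 CPM in control and 57.7, 62.5 and 93.5 CPM in CIAKI rats (log2 fold change -1.46, SE 0.18, adjusted p = 0.00042). For both genes the groups were well apart. Slc12a3, the thiazide-sensitive cotransporter, fell by 0.45. The kinase genes that regulate it moved apart, Wnk1 at -0.67 and Wnk4 at 0.46. Of 16 genes of intercalated cells, which secrete acid and base, 5 fell and 1 rose. Atp6v1c2, a proton pump subunit, fell by 1.31 and the regulator gene Foxi1 by 0.62, while Car15, a carbonic anhydrase, rose by 0.94.

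Principal cells of the collecting duct, where vasopressin sets water recovery, showed counts near the 20.8% higher and 20.5% lower of all features. Of 18 tested genes 4 rose and 5 fell, and 9 did not pass. Aqp2, the vasopressin-regulated water channel, stood at 189, 191 and 219 CPM in control and 272, 457 and 411 CPM in CIAKI rats (log2 fold change 0.90, SE 0.20, adjusted p = 0.0064). Aqp4, the basolateral water channel, stood at 43.2, 60.9 and 40.5 CPM in control and 133, 208 and 191 CPM in CIAKI rats (log2 fold change 1.86, SE 0.31, adjusted p = 0.0016). CIAKI 1 was the lowest CIAKI rat for both, and the groups did not overlap. Aqp3, a further basolateral channel, lay at 0.59 with overlapping groups, and its call was lost in 5 of 16 alternatives. Avpr2, the vasopressin receptor that drives Aqp2, was lower. It stood at 15.7, 15.7 and 12.7 CPM in control and 2.99, 4.49 and 10.4 CPM in CIAKI rats (log2 fold change -1.31, SE 0.33, adjusted p = 0.012), and CIAKI 3 was nearest to the controls. Nr3c2, the mineralocorticoid receptor, fell by 0.89, Ptger1, a prostaglandin E receptor, by 1.54 and Scnn1b, a subunit of the epithelial sodium channel, by 0.60. Scnn1a, the pore subunit of the same channel, did not pass (log2 fold change -0.06, SE 0.13, adjusted p = 0.73). Without control 1 the number of higher principal-cell genes went from 4 to 2.

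**Figure D3:**
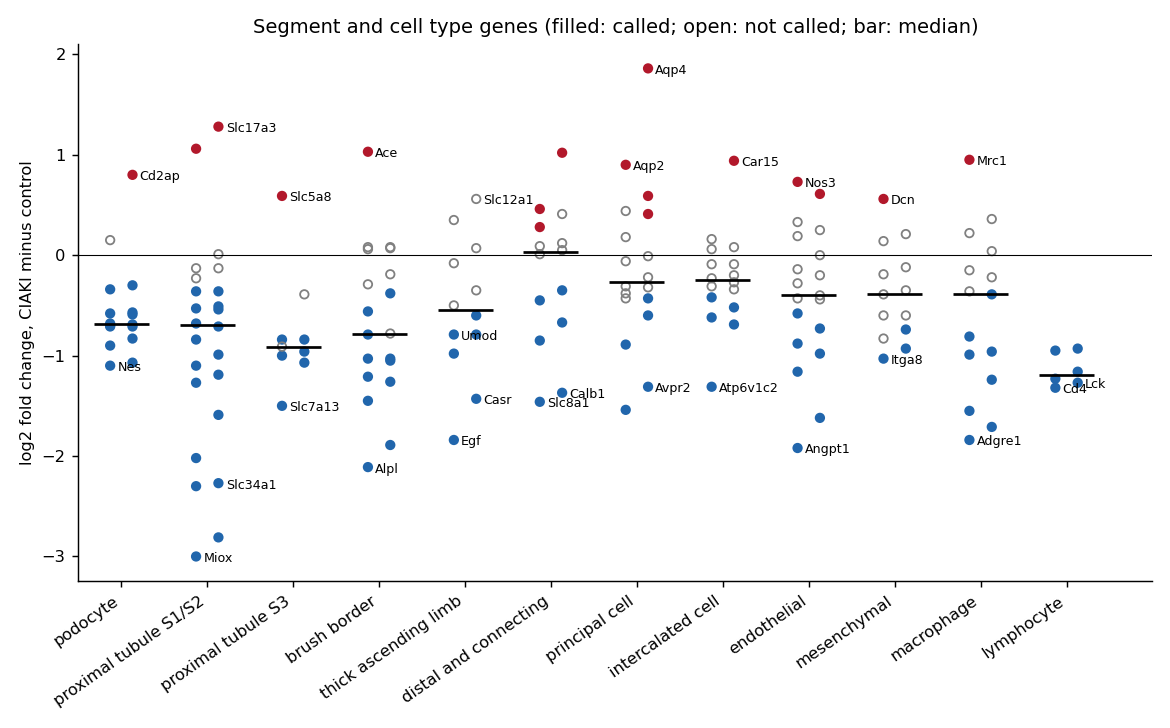
Log2 fold changes (CIAKI against control, log2(CPM + 1) scale, vertical axis) of the tested marker genes of 12 segment and cell type lists, 1 point a gene, filled where called (red higher, blue lower) and open where not, with the list median as a bar. Medians lie at -0.91 for the straight and -0.69 for the convoluted proximal tubule (S3 and S1/S2), at -0.68 for podocytes and at 0.03 for the distal list.

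Genes linked to water and salt balance outside the collecting duct also differed. The angiotensin receptor genes fell, Agtr1a by 1.31 and Agtr1b by 1.28. Nfat5, the transcription factor of the response to high salt, rose by 0.53 (247, 310.4 and 255 CPM in control and 409.8, 414 and 349.6 CPM in CIAKI rats). Of 12 tested genes of osmolyte handling, 6 rose and 1 fell, against 20.8% and 20.5% of all features. Their log2 fold changes ran from -1.04, which did not pass, to 1.19. The mean difference of the list from the control mean was -0.11 in CIAKI 1, 0.43 in CIAKI 2 and 0.24 in CIAKI 3. Slc38a2, an amino acid carrier that is turned on by hypertonicity, stood at 201, 263 and 202 CPM in control and 447, 616 and 461 CPM in CIAKI rats (log2 fold change 1.19, SE 0.17, adjusted p = 0.00071). Chdh, an enzyme on the path from choline to betaine, rose by 0.82, and the inositol phosphatase genes Impa1 and Impa2 rose by 0.35 and 0.59. The member that fell was Aldh7a1, an aldehyde dehydrogenase (log2 fold change -0.79, SE 0.07, adjusted p = 7.2e-05). It stood at 586, 563 and 633 CPM in control and 346, 335 and 344 CPM in CIAKI rats. Miox, which breaks inositol down, was among the largest losses of read share, at -3.0. It was counted among the genes of the convoluted proximal tubule, most of which fell, and not among those of osmolyte handling. Among 15 genes of sodium transport, 2 rose, among them the sodium pump subunit gene Atp1b1 (0.62), and 6 fell. The sodium-proton exchangers Slc9a3 and Slc9a2 fell by 1.27 and 1.10.

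Among mediators of vascular tone more fell than rose. Of 27 tested, 13 fell and 6 rose (median -0.39). Aplnr, the receptor of the vasodilator peptide apelin, stood at 34.7, 21.9 and 26.1 CPM in control and 2.38, 3.92 and 5.59 CPM in CIAKI rats (log2 fold change -2.55, SE 0.30, adjusted p = 0.0003). Its ligand gene Apln fell by 1.75. The subunits of soluble guanylate cyclase, the receptor of nitric oxide, fell together, Gucy1a1 at -1.98, Gucy1b1 at -1.15 and Gucy1b2 at -3.30. Edn1, which encodes the vasoconstrictor endothelin, rose by 1.12 (1.42, 1.29 and 1.64 CPM in control and 3.48, 5.94 and 3.88 CPM in CIAKI rats). Endothelial genes were lower in 7 and higher in 2 of 19 cases (median -0.40). Angpt1, the ligand that stabilises vessels, stood at 33.8, 28.3 and 32.4 CPM in control and 6.71, 5.81 and 11 CPM in CIAKI rats (log2 fold change -1.92, SE 0.19, adjusted p = 0.00013). Its receptor family member Tie1 fell by 1.16, and Kdr, the main receptor of vascular endothelial growth factor, by 0.88. Flt1, the decoy receptor of the same factor, rose by 0.61, and Nos3, the endothelial nitric oxide synthase, picked out after its values were seen, lay at 0.73.

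In the glomerulus, 14 of 16 podocyte genes fell and 1 rose (median -0.68). The summed level of the list was 1581, 1595 and 1663 CPM in control and 1289, 1187 and 1217 CPM in CIAKI rats, so the drop was moderate and of similar size in all 3 rats. Tcf21, a transcription factor of podocytes, stood at 20.1, 19.6 and 21.2 CPM in control and 7.89, 10.5 and 9.24 CPM in CIAKI rats (log2 fold change -1.07, SE 0.18, adjusted p = 0.0015). Nes, the intermediate filament nestin, fell by 1.10 and Synpo, an actin organiser of foot processes, by 0.71. The member that rose was Cd2ap, an adaptor of the slit diaphragm that tubule cells express as well, at 0.80. Vegfa, which podocytes and tubules make, fell by 0.34.

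Kidney hormones and mineral control were changed at several steps. Of 11 tested genes 6 fell and 3 rose. Kl, which encodes Klotho, the co-receptor of the phosphate hormone FGF23, stood at 851, 765 and 883 CPM in control and 178, 309 and 328 CPM in CIAKI rats (log2 fold change -1.66, SE 0.20, adjusted p = 0.00034). Pth1r, the parathyroid hormone receptor, fell by 1.71 (461, 365 and 376 CPM in control and 98.4, 118 and 154 CPM in CIAKI rats). Both were lowest in CIAKI 1 and lower in every CIAKI rat than in any control. Slc20a1, a widely expressed phosphate importer, rose by 1.23, while the exporter gene Xpr1 fell by 0.42. Cyp27b1, which activates vitamin D, lay at 1.31 on levels of 1.04 to 8.57 CPM, and its call was lost without control 3, CIAKI 1 or CIAKI 3 (adjusted p up to 0.057). Cyp24a1, which degrades it, did not pass (125, 258 and 204 CPM in control and 359, 239 and 223 CPM in CIAKI rats; adjusted p = 0.15 in limma).

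Genes of tubular injury and dedifferentiation rose in 20 of 30 tested cases and fell in 3 (median 0.97). Gpnmb, a transmembrane glycoprotein linked to lysosomes, stood at 3, 1.74 and 2.4 CPM in control and 175, 80 and 94.8 CPM in CIAKI rats (log2 fold change 5.05, SE 0.27, adjusted p = 1.4e-05). The fibrinogen chains, normally made in liver, were measurable in control kidneys and rose together. Fga stood at 18.5, 17.1 and 16.9 CPM in control and 241, 337 and 166 CPM in CIAKI rats (log2 fold change 3.69, SE 0.20, adjusted p = 1.6e-05) and Fgb at 3.54, 4.58 and 4.78 CPM in control and 95.1, 67.6 and 55.7 CPM in CIAKI rats (log2 fold change 3.77, SE 0.24, adjusted p = 2.3e-05). Fgg, the gene of the remaining chain, stood at 0.274, 0.302 and 0.172 CPM in control and 2.96, 4.95 and 3.57 CPM in CIAKI rats (log2 fold change 1.93, SE 0.17, adjusted p = 9e-05). Fgg was below 1 CPM in every control rat, so it met the filter only through other libraries, which favours a rise. CIAKI 3 was the lowest CIAKI rat for Fga and Fgb. Sox9, a transcription factor of tubule repair, rose by 0.95 (50, 60 and 41.6 CPM in control and 97.5, 129 and 74.5 CPM in CIAKI rats), and Pax8, a factor of nephron development, by 0.74. PVR, the adhesion receptor nectin-like 5, stood at 2.99, 3.46 and 4.11 CPM in control and 39.1, 124 and 22.6 CPM in CIAKI rats (log2 fold change 3.45, SE 0.50, adjusted p = 0.00086), with CIAKI 2 at more than 3 times the other CIAKI rats. Keratin genes gave no common direction: Krt23 and Krt8 rose by 1.25 and 0.50, Krt7 fell by 0.65, and Krt18 (0.65), Krt19 (0.35) and Krt80 (0.07) did not pass. The promoter of Gpnmb, 250 bases up to the gene start in the RefSeq promoter set of GRCr8, is shown because Gpnmb was among the 15 largest rises and its promoter holds the letters of an AP-1 site (TGANTCA, its own reverse complement, in capitals).
Gpnmb promoter, chr4:79340878-79341127, strand +: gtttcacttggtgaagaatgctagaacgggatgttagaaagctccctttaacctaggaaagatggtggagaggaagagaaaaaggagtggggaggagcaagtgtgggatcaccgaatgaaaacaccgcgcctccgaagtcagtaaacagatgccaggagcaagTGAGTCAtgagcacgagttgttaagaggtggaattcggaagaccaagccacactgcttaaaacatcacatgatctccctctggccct
The AP-1 letters were found in 39 of 357 promoters (10.9%) of genes at least 2-fold higher, in 34 of 573 (5.93%) of those at least 2-fold lower and in 498 of 10120 (4.92%) of all tested genes with a promoter in the set, which spans 250 bases before to 50 after the start. For all genes called higher the share was 146 of 2577 (5.67%), and for all called lower 92 of 2077 (4.43%). A match is a description of the letters, and no binding was measured.

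Cytoskeleton genes rose with them, 18 of 26 (median 0.60), with 1 lower. The tubulin genes Tubb2a, Tubb4b and Tuba1c rose by 1.46, 1.45 and 1.23. Tubb4b, for instance, stood at 169, 156 and 173 CPM in control and 495, 444 and 429 CPM in CIAKI rats (log2 fold change 1.45, SE 0.07, adjusted p = 9.9e-06). Tpm4, a tropomyosin, rose by 0.84, Myl12a, a regulatory myosin light chain, by 1.04 and Arpc1b, a subunit of the actin-branching complex, by 0.62. Myl9, the light chain typical of smooth muscle, was the member that fell (-1.23) and was picked out after its values were seen. Among tight junction genes, 7 of 23 rose, including Cldn1 (0.92) and Cldn15 (1.02), and 4 fell. Over all features 20.8% rose and 20.5% fell.

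Growth factor genes moved in both directions, 8 higher and 8 lower of 24. Nrg1, the neuregulin ligand of ERBB receptors, stood at 31.9, 35.2 and 30.4 CPM in control and 132, 136 and 114 CPM in CIAKI rats (log2 fold change 1.94, SE 0.11, adjusted p = 1.6e-05). Met, the receptor of hepatocyte growth factor, rose by 1.06 (155, 161 and 140.4 CPM in control and 328, 356 and 275 CPM in CIAKI rats). Igfbp1, which binds insulin-like growth factors in the blood, stood at 23.1, 28.3 and 30.4 CPM in control and 518, 1112 and 312 CPM in CIAKI rats (log2 fold change 4.33, SE 0.37, adjusted p = 7.2e-05), while its relative Igfbp2 fell by 1.01. Bmp4, a ligand of the transforming growth factor family, fell by 1.07. Osmr, the receptor of the cytokine oncostatin M, stood at 9.61, 16.4 and 11.9 CPM in control and 68.4, 135 and 60.7 CPM in CIAKI rats (log2 fold change 2.64, SE 0.30, adjusted p = 0.00026).

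Immediate early genes, which are transcribed within minutes of a stimulus, rose in 8 and fell in 3 of 20 cases (median 0.42). Myc, a transcription factor of growth, stood at 6.19, 7.61 and 7.97 CPM in control and 68, 111 and 50.5 CPM in CIAKI rats (log2 fold change 3.16, SE 0.27, adjusted p = 7.8e-05). Atf3, a stress-induced repressor, stood at 5.65, 6.12 and 6.63 CPM in control and 23.7, 61.9 and 24.3 CPM in CIAKI rats (log2 fold change 2.25, SE 0.42, adjusted p = 0.0029), and Btg2, an antiproliferative gene, at 44, 42.8 and 52.2 CPM in control and 164, 342 and 117 CPM in CIAKI rats (log2 fold change 2.0, SE 0.37, adjusted p = 0.0027). For all of these, and for Maff, Klf6 and Ier3 (higher by 2.20, 1.89 and 1.49), CIAKI 2 was the highest rat. The mean difference of the list from the control mean was 1.19 in CIAKI 2, against 0.45 in CIAKI 1 and 0.62 in CIAKI 3. The count of 3 lower members went to 0 or 1 when control 1, control 3 or any CIAKI rat was left out.

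**Figure D4:**
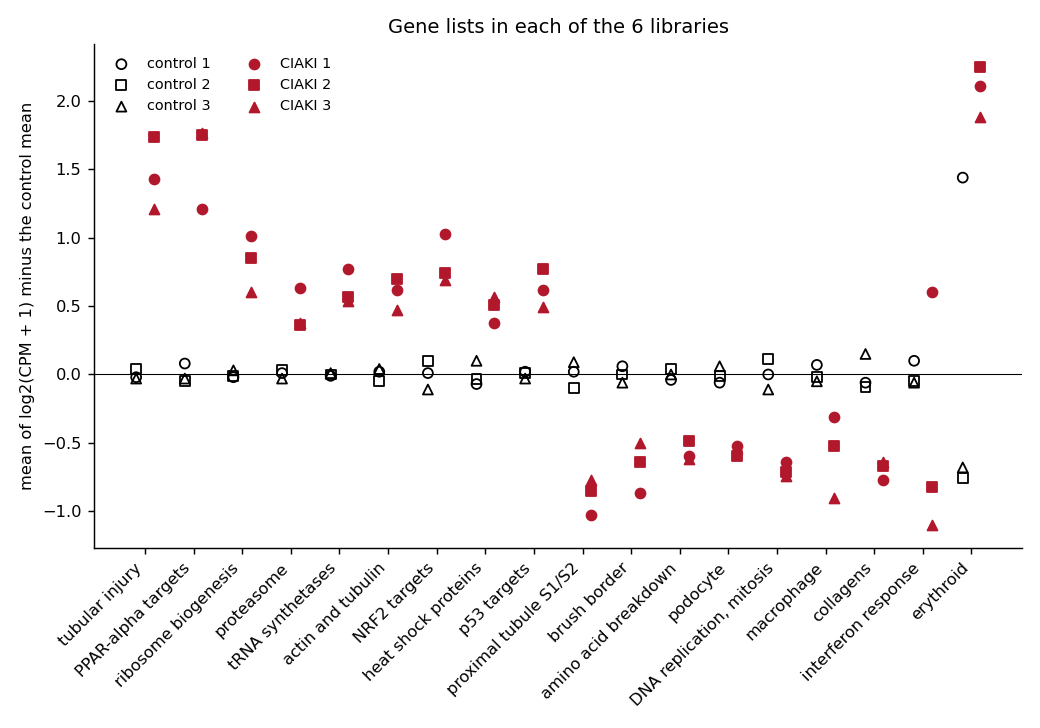
Mean over the tested members of 18 gene lists of log2(CPM + 1) minus the control mean (vertical axis), 1 point a library, open for control and filled for CIAKI rats. CIAKI 1, 2 and 3 lie at 1.01, 0.85 and 0.60 for ribosome biogenesis and at 0.60, -0.82 and -1.10 for interferon genes, and control 1 lies at 1.44 for erythroid genes, apart from the other controls.

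The CIAKI rats differed from each other in degree. Over the 560 features at least 2-fold higher, the mean log2 difference from the control mean was 1.65, 1.70 and 1.34 in CIAKI 1, 2 and 3, and over the 1092 at least 2-fold lower it was -1.57, -1.52 and -1.39. CIAKI 3 lay nearest to the controls for 333 (59.5%) and 538 (49.3%) of them. Lists differed in which rat was farthest from the controls. CIAKI 2 was for the immediate early list, and CIAKI 1 for ribosome biogenesis (1.01 against 0.85 and 0.60) and NRF2 genes (1.03 against 0.74 and 0.69). PPAR targets were lowest in CIAKI 1 (1.21 against 1.75 and 1.77). These values describe 3 rats and carry no test.

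Genes of protein synthesis rose in most tested cases. Of 39 tested genes of ribosome assembly in the nucleolus, 38 rose and none fell (median 0.82), against 20.8% higher over all features. Nop2, an rRNA methyltransferase, stood at 17.4, 15.7 and 18.6 CPM in control and 62.4, 52.5 and 45.9 CPM in CIAKI rats (log2 fold change 1.57, SE 0.13, adjusted p = 5.9e-05). Utp20, a component of the small subunit processome, stood at 38.3, 39.1 and 45.3 CPM in control and 108, 99.1 and 88.2 CPM in CIAKI rats (log2 fold change 1.25, SE 0.09, adjusted p = 4.7e-05), and the pre-rRNA processing gene Ftsj3 rose by 1.20. CIAKI 1 was highest and CIAKI 3 lowest among CIAKI rats in all 3 genes. Ubtf, a factor of RNA polymerase I that was picked out after its values were seen, was the member that did not pass. Of 77 cytosolic ribosomal protein genes 66 rose and none fell (median 0.63), for example Rpl4 (1.02). Processed copies of these genes can take or lend reads, and how the authors treated such reads is not given in the sources. Of 60 translation factor genes 39 rose and 2 fell, with the elongation factor gene Eef1b2 at 1.10 and the initiation factor gene Eif3b at 0.69. Mitochondrial ribosomal protein genes moved less, 21 higher and 4 lower of 74 (median 0.13). The E-box CACGTG, bound in general by Myc and related factors, was found in 13 of 36 promoters (36.1%) of ribosome biogenesis genes, in 933 of 10120 (9.22%) of all tested genes with a promoter, in 12.3% of those of genes at least 2-fold higher and 6.46% of those at least 2-fold lower. Of the genes described here, Nop2 and Utp20 hold it, and the promoter of Utp20 is shown with the E-box in capitals.
Utp20 promoter, chr7:25102850-25103099, strand -: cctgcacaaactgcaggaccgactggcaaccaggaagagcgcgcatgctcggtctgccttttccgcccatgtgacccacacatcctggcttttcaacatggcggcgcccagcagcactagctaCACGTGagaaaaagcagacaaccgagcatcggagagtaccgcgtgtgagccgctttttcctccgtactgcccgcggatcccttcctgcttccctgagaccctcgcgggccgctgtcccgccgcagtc

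Cytosolic aminoacyl-tRNA synthetases, which load amino acids onto tRNA, rose in 15 of 18 cases with none lower (median 0.65). Cars stood at 21.4, 19 and 18.3 CPM in control and 47.5, 49.3 and 39.9 CPM in CIAKI rats (log2 fold change 1.18, SE 0.10, adjusted p = 7.7e-05) and Sars at 65.7, 63.7 and 63.3 CPM in control and 154, 117 and 123 CPM in CIAKI rats (log2 fold change 1.01, SE 0.10, adjusted p = 0.00015). Mars, Nars, Tars and Yars rose by 0.89, 0.89, 0.95 and 0.88. Genes of the integrated stress response, which shares targets with amino acid shortage, rose in 12 and fell in 3 of 25 cases (median 0.59). Atf4, its central transcription factor, stood at 88.6, 90.2 and 99.1 CPM in control and 232, 304 and 186 CPM in CIAKI rats (log2 fold change 1.34, SE 0.15, adjusted p = 0.00024). Asns, asparagine synthetase, rose by 1.46, the mitochondrial folate enzyme gene Mthfd2 by 1.54 and the translation brake gene Eif4ebp1 by 1.41. Nupr1, a small stress-induced chromatin protein, stood at 1.95, 1.55 and 2.33 CPM in control and 11.6, 12.9 and 6.82 CPM in CIAKI rats (log2 fold change 1.93, SE 0.27, adjusted p = 0.00071). Those that fell, named after seeing their values, were the serine synthesis genes Phgdh (-0.76) and Psph (-1.08) and the lipoprotein receptor gene Vldlr (-0.52). The composite letters of a CEBP-ATF site (TGATGNAA or, on the other strand, TTNCATCA) lay in 7 of 15 promoters (46.7%) of synthetase genes and in 5 of 22 (22.7%) of the stress response list, against 191 of 10120 (1.89%) of all tested genes with a promoter. The promoters of Mars and Nupr1, named members of these lists, are given with the match in capitals. The matches begin 17 and 55 bases before the start.
Mars promoter, chr7:65023754-65024003, strand -: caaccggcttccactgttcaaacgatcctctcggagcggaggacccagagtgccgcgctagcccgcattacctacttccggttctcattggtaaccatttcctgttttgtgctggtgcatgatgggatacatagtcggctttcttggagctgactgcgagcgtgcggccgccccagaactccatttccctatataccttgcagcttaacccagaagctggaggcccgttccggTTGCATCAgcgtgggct
Nupr1 promoter, chr1:190645902-190646151, strand -: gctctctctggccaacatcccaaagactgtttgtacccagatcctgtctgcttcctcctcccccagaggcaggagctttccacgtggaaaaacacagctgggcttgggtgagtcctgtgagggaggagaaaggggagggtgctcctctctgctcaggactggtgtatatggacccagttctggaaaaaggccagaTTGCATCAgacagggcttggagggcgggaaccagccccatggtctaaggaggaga

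Protein quality genes rose as well. Of 21 chaperone and cochaperone genes of the heat shock response 12 rose and none fell (median 0.45). Hsp90aa1, the inducible cytosolic chaperone HSP90, stood at 238, 245 and 274 CPM in control and 521, 568 and 718 CPM in CIAKI rats (log2 fold change 1.24, SE 0.12, adjusted p = 0.0001). Hspa8, the constitutive HSP70, stood at 930.4, 938 and 946 CPM in control and 1249, 1536 and 1375 CPM in CIAKI rats (log2 fold change 0.56, SE 0.10, adjusted p = 0.002), and Cryab, a small heat shock protein of the medulla, at 102, 95.8 and 61.7 CPM in control and 227, 205 and 215 CPM in CIAKI rats (log2 fold change 1.34, SE 0.19, adjusted p = 0.0008). Groups did not overlap in any of these 3 genes. The heat shock element, read as GAA, TTC and GAA with 2 free bases between the units on either strand, lay in 6 of 17 promoters (35.3%) of this list and in 49 of 10120 (0.484%) of all. Hspa8 is the named gene shown, with 2 matches in capitals, 1 on each strand.
Hspa8 promoter, chr8:50080264-50080513, strand +: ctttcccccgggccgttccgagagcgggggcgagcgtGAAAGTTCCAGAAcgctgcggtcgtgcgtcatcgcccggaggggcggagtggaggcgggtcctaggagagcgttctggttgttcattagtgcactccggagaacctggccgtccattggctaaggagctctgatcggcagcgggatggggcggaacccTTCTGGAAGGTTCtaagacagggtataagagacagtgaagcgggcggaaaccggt
Chaperones of the endoplasmic reticulum changed less, 5 higher of 20, near the 20.8% of all features, with Dnajb9 at 0.84 and Hyou1 at 0.58. That count went to 9 without control 3 and to 8 without CIAKI 2. Of 36 proteasome genes 32 rose and 2 fell (median 0.55). Psmd5, an assembly chaperone of the regulatory particle, rose by 1.15 (50.8, 52.9 and 49.9 CPM in control and 121, 129 and 96.7 CPM in CIAKI rats). The members that fell were the immunoproteasome subunit genes Psmb9 (-1.08) and Psmb8 (-1.30), the latter picked out after its values were seen.

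**Figure D5:**
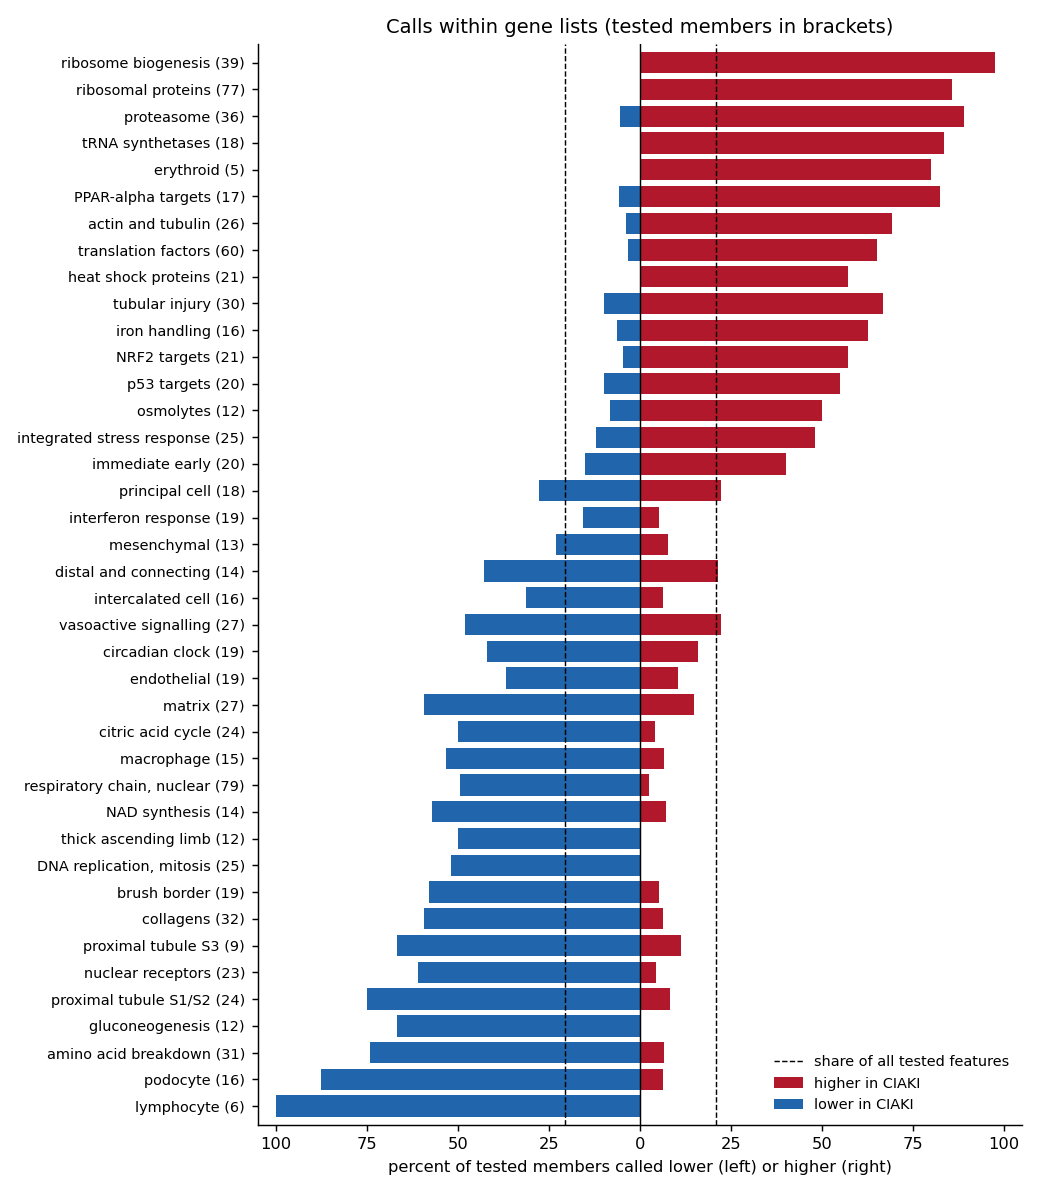
Percent of the tested members of 40 gene lists called higher (red, right) and lower (blue, left) in CIAKI rats, with the number tested in brackets and dashed lines at the shares over all features (20.8% and 20.5%). Ribosome biogenesis, with 38 of 39 higher, and lymphocyte genes, with 6 of 6 lower, lie at the ends. Lymphocyte genes below 1 CPM in all CIAKI rats met the filter only through other libraries, which favours a fall.

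Fuel metabolism moved by pathway. PPAR alpha targets, which handle fatty acids during fasting, rose in 14 of 17 cases and fell in 1 (median 1.11). Vnn1, a pantetheinase, stood at 44.5, 51.1 and 52.8 CPM in control and 235, 263 and 476 CPM in CIAKI rats (log2 fold change 2.62, SE 0.24, adjusted p = 9e-05). Acot2, a mitochondrial thioesterase, stood at 83.8, 99 and 104 CPM in control and 303, 414 and 458 CPM in CIAKI rats (log2 fold change 2.01, SE 0.15, adjusted p = 4.7e-05), and Plin2, the coat protein of lipid droplets, at 44.8, 42.8 and 48.9 CPM in control and 506, 716 and 256 CPM in CIAKI rats (log2 fold change 3.29, SE 0.30, adjusted p = 9.4e-05). Creb3l3, a transcription factor of liver fasting, was at or below 0.489 CPM in control rats and at 8.61 to 14.3 CPM in CIAKI rats. It met the filter only through libraries other than the controls, which favours a rise. Fabp3, a fatty acid binding protein, fell (-1.75) and was picked out after its values were seen. Among 22 genes of fatty acid oxidation 6 rose and 3 fell (median 0.13), not far from the 20.8% and 20.5% of all features. Those that fell, picked out after their values were seen, were Echs1 (-0.51), Hadh (-0.42) and Etfb (-0.23). Those that rose included the carnitine shuttle genes Cpt1a (1.28), Cpt2 (1.29) and Slc25a20 (0.74) and the isomerase gene Eci1, which stood at 104, 110.3 and 111 CPM in control and 412, 511 and 437 CPM in CIAKI rats (log2 fold change 2.05, SE 0.20, adjusted p = 0.00013). Food intake during the protocol is not given, and its part in these values was not tested.

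Genes of glucose production and fructose use, tasks of the proximal tubule, were mostly lower. Of 12 tested genes 8 fell and none rose (median -0.72). The summed level of the list was 13170, 11786 and 13361 CPM in control and 7665, 9085 and 12786 CPM in CIAKI rats. By that sum CIAKI 3 lay inside the control range. Pc, pyruvate carboxylase, stood at 645, 631 and 823 CPM in control and 184, 183 and 174 CPM in CIAKI rats (log2 fold change -1.94, SE 0.12, adjusted p = 2.2e-05). Fbp1, fructose-1,6-bisphosphatase, stood at 1191, 1086 and 1139 CPM in control and 372, 473 and 625 CPM in CIAKI rats (log2 fold change -1.25, SE 0.16, adjusted p = 0.00054), and the glucose-6-phosphate carrier gene Slc37a4 fell by 1.27. In glycolysis, 7 of 21 genes rose and 2 fell. Ldha, which makes lactate, stood at 149, 160.2 and 148 CPM in control and 481, 505 and 538 CPM in CIAKI rats (log2 fold change 1.73, SE 0.08, adjusted p = 6.7e-06). Aldoa and Gapdh rose by 0.66 and 0.55, while Pfkm, a phosphofructokinase, fell by 0.78. Without CIAKI 2, 5 glycolysis genes were lower.

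Genes of the citric acid cycle and the nuclear respiratory chain were lower by small amounts. In the citric acid cycle and pyruvate entry, 12 of 24 genes fell and 1 rose (median -0.31). Mdh1, malate dehydrogenase, stood at 747, 742 and 746 CPM in control and 395, 416 and 411 CPM in CIAKI rats (log2 fold change -0.87, SE 0.06, adjusted p = 4.1e-05), and Mpc1, a subunit of the mitochondrial pyruvate carrier, fell by 0.67. Of 79 nuclear genes of the respiratory chain 39 fell and 2 rose (median -0.25). Cox8a, a subunit of cytochrome c oxidase, stood at 421, 433 and 412 CPM in control and 300.3, 293 and 273 CPM in CIAKI rats (log2 fold change -0.55, SE 0.07, adjusted p = 0.00049), a small change with little spread. Mitochondrially encoded genes behaved less uniformly. Of 13 tested 2 fell, Mt-co2 (-0.85) and Mt-nd6 (-0.54), and neither call held when control 3 was left out (adjusted p = 0.095 and 0.058). Mt-co1, the most read of them, stood at 35398, 23362 and 28203 CPM in control and 22773, 29084 and 26730 CPM in CIAKI rats (log2 fold change -0.13, SE 1.43, adjusted p = 0.95). The wide SE of Mt-co1 comes with 1 of the icariin libraries, which stood at 437 CPM against 35288 and 38157 CPM in the others, and a fit of the 6 control and CIAKI libraries alone gave an adjusted p of 0.8. Of 17 genes of mitochondrial biogenesis and dynamics 9 rose and 3 fell (median 0.21). Ppargc1a, the coactivator of mitochondrial biogenesis, fell by 0.40, Ppargc1b by 0.76, and the related Pprc1 rose by 1.05. Of 40 carrier genes of the inner membrane 10 rose and 9 fell, shares near the 20.8% and 20.5% of all features. The related ATP-magnesium carriers Slc25a23 and Slc25a24 lay at -2.04 and 1.51. Slc25a23 stood at 148, 136 and 149 CPM in control and 30.6, 35.8 and 36.9 CPM in CIAKI rats and Slc25a24 at 9.69, 9.92 and 10.2 CPM in control and 40, 29.2 and 23.1 CPM in CIAKI rats. Slc25a22, a glutamate carrier, rose by 1.98.

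Amino acid breakdown was lower in 23 of 31 genes and higher in 2 (median -0.65). Fah, the last enzyme of tyrosine breakdown, stood at 203, 216 and 204 CPM in control and 99.6, 106 and 98.2 CPM in CIAKI rats (log2 fold change -1.03, SE 0.06, adjusted p = 1.6e-05), and Cth, which makes cysteine from cystathionine, fell by 1.23. Among those that rose was Glud1 (0.52), a glutamate dehydrogenase that feeds ammonia formation and was picked out after its values were seen. Genes of the kynurenine path and NAD synthesis fell in 8 of 14 cases (median -0.79). Acmsd, which diverts the kynurenine pathway away from NAD, stood at 209, 204 and 229 CPM in control and 16.7, 44.1 and 39.2 CPM in CIAKI rats (log2 fold change -2.75, SE 0.29, adjusted p = 0.00018). Kynu, Haao and Qprt, which lead to NAD, fell by 1.44, 0.85 and 0.88, and Naprt, which uses niacin, by 1.56. Nampt, the enzyme of the salvage route, picked out after its values were seen, lay at 0.37, a call lost in 5 of the alternatives. Argininosuccinate synthase, Ass1, stood at 1417, 1272 and 1490 CPM in control and 604, 635 and 608 CPM in CIAKI rats (log2 fold change -1.17, SE 0.09, adjusted p = 4.8e-05). Together with Gatm and Gamt (-1.05), 3 steps of arginine and creatine synthesis were lower. The list of arginine, creatine and polyamine genes as a whole did not fall. Of its 19 tested members 4 rose and 4 fell (median 0.14), near the 20.8% and 20.5% of all features. Sat1, which breaks polyamines down, rose by 0.99.

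Antioxidant genes rose unevenly. Of 21 NRF2 targets 12 rose and 1 fell (median 0.50). Txnrd1, thioredoxin reductase, stood at 277, 261 and 268 CPM in control and 594, 616 and 420.3 CPM in CIAKI rats (log2 fold change 1.0, SE 0.13, adjusted p = 0.00059), and Taldo1, a transaldolase of the pentose phosphate path, rose by 0.71. Gclc, which encodes the catalytic subunit of the first enzyme of glutathione synthesis, did not pass. It stood at 5849, 8113 and 4558 CPM in control and 4454, 3489 and 4120 CPM in CIAKI rats (log2 fold change -0.59, SE 0.22, adjusted p = 0.062), with every CIAKI rat below every control rat. Osgin1, a stress-induced growth inhibitor, was the NRF2 member that fell (-1.14). Among peroxide-degrading enzymes Prdx1 and Prdx6 rose by 0.80 and 0.65 and Gpx4, which reduces lipid peroxides, by 0.57. Catalase, Cat, stood at 1550, 1578 and 1427 CPM in control and 851, 714 and 847 CPM in CIAKI rats (log2 fold change -0.92, SE 0.10, adjusted p = 0.00025). Of 16 genes of iron handling 10 rose, among them the transferrin receptor gene Tfrc (0.81), although 5 or 6 passed when control 1, control 3 or CIAKI 1 was left out. Zinc genes moved with the metallothioneins Mt1m (1.68) and Mt2A (1.80), whose near-identical copies make single values uncertain. The genes Slc30a1 and Slc30a2, whose products move zinc out of the cytosol, fell by 0.75 and 1.39, and the importer gene Slc39a10 rose by 1.34.

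Drug-metabolising genes were split. Of 36 cytochrome P450 genes 7 rose, near the 20.8% of all features, and 13 fell, against 20.5% of all features. Cyp2c11, a male-typical steroid hydroxylase, stood at 187, 92.1 and 48.9 CPM in control and 5.25, 27.1 and 9.46 CPM in CIAKI rats (log2 fold change -2.96, SE 0.68, adjusted p = 0.0076), with wide spread in both groups. Cyp3a9 was listed at 0 in all 3 control rats and at 7.4, 2.01 and 1.63 CPM in CIAKI rats. It met the filter only through libraries other than the controls, which favours a rise. Of 26 conjugation genes 8 rose and 7 fell (median -0.04), against 20.8% and 20.5% of all features. The lower count was 4 without control 1 and 11 without CIAKI 1. The glutathione transferase genes Gstm1 and Gstm2 rose by 2.78 and 3.52, and Gstm2 stood at 45.5, 49.9 and 48.6 CPM in control and 702, 848 and 298 CPM in CIAKI rats (log2 fold change 3.52, SE 0.33, adjusted p = 0.0001). Their sequences are alike, so reads may be split between them. Sulfotransferases moved apart, Sult1a1 at 1.80 and Sult1c2 at -1.88.

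Targets of p53 rose in 11 of 20 cases and fell in 2 (median 0.48). Ccng1, cyclin G1, stood at 153, 176 and 144 CPM in control and 311, 339.6 and 303 CPM in CIAKI rats (log2 fold change 1.01, SE 0.09, adjusted p = 7.2e-05), and Perp, a membrane effector of cell death, rose by 0.65. Sesn1, a stress regulator of growth signalling, fell by 0.92. Cell cycle genes were lower in 13 of 25 cases with none higher (median -0.43). Rrm2, the ribonucleotide reductase subunit of dividing cells, stood at 5.69, 7.47 and 5.75 CPM in control and 0.782, 1.04 and 0.808 CPM in CIAKI rats (log2 fold change -1.95, SE 0.20, adjusted p = 0.00014), and Plk1, a mitotic kinase, at 3.56, 4.42 and 3.66 CPM in control and 0.806, 0.847 and 0.637 CPM in CIAKI rats (log2 fold change -1.47, SE 0.18, adjusted p = 0.00037). Most of these genes were low in control kidneys already, and 7 were called when only features of at least 5 CPM were tested. Plk1 was below 1 CPM in every CIAKI rat, so it met the filter only through other libraries, which favours a fall. Among cell death genes 10 rose and 6 fell of 28, against 20.8% and 20.5% of all features, so the lower count was near the share of all. That lower count went to 3 with no filter or without control 1, control 3 or CIAKI 2, and to 2 without control 2. Ripk3, the kinase of necroptosis, stood at 3.96, 3.53 and 3.49 CPM in control and 19.9, 13.5 and 10.3 CPM in CIAKI rats (log2 fold change 1.70, SE 0.22, adjusted p = 0.00051). Tnfrsf1a, the first receptor of tumour necrosis factor, rose by 1.37 and the survival gene Bcl2l1 by 0.67, while Nlrp3, the inflammasome sensor, fell by 1.07.

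Among immune cell markers, more fell than rose. Of 15 tested macrophage genes 8 fell and 1 rose (median -0.39). The summed level of all 17 listed was 429, 411 and 374 CPM in control and 346, 295 and 232 CPM in CIAKI rats, lowest in CIAKI 3. Adgre1, the F4/80 antigen, stood at 20.9, 18.3 and 16.5 CPM in control and 5.1, 4.83 and 3.56 CPM in CIAKI rats (log2 fold change -1.84, SE 0.19, adjusted p = 0.00018). Csf1r, the receptor macrophages need to survive, fell by 0.96. Mrc1, the mannose receptor of resident and repair macrophages, stood at 6.43, 7.68 and 8.17 CPM in control and 21.8, 16.2 and 9.77 CPM in CIAKI rats (log2 fold change 0.95, SE 0.24, adjusted p = 0.012) and was the member that rose. Without control 1 or without CIAKI 3, 5 macrophage genes were lower. All 6 lymphocyte genes tested, of 15 listed, fell (median -1.19). Cd3e, Cd8a, Lck and Nkg7 were below 1 CPM in every CIAKI rat, so they met the filter only through other libraries. The filter thus favours a fall among them, and the count carries little weight. With a filter of 5 CPM in 3 libraries, 1 lymphocyte gene was called lower. The summed level of all 15, the untested ones included, was 33.6, 29.2 and 29.5 CPM in control and 9.98, 9.75 and 6.73 CPM in CIAKI rats. Only Cd4, which rat macrophages carry too, was above 5 CPM in control rats, at 20.4, 17.9 and 17.3 CPM in control and 8.26, 7.8 and 4.77 CPM in CIAKI rats (log2 fold change -1.32, SE 0.25, adjusted p = 0.0028). Of the 10 neutrophil genes listed, only Csf3r passed the filter on low values, at 0.918, 0.847 and 1.53 CPM in control and 1.73, 1.4 and 1.23 CPM in CIAKI rats, and it did not pass.

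Chemokine and cytokine genes fell in 9 and rose in 6 of 22 cases. Cxcl12, the stromal chemokine, stood at 136, 139 and 129 CPM in control and 28.3, 21.3 and 41.7 CPM in CIAKI rats (log2 fold change -2.16, SE 0.24, adjusted p = 0.00024), with every CIAKI rat far below every control. Ccl2, which draws monocytes, fell from a low level (2.95, 3.65 and 4.61 CPM in control and 0.529, 0.654 and 0.901 CPM in CIAKI rats; log2 fold change -1.47, SE 0.22, adjusted p = 0.001), and Cx3cl1, fractalkine, fell by 1.10. Ccl2 was below 1 CPM in every CIAKI rat, so it met the filter only through other libraries, which favours a fall. Complement genes fell in 8 of 21 cases, with C4a at -1.24, while Cd59, which blocks the terminal complex, rose by 0.94. Leaving out control 1, control 3 or CIAKI 3 lowered the complement count to 5. Antigen presentation genes of class II fell, RT1-Da by 1.38, Cd74, the invariant chain, by 1.27 and Ciita, their master regulator, by 1.34. Cd74 stood at 300.3, 365 and 429.7 CPM in control and 187, 167 and 106 CPM in CIAKI rats (log2 fold change -1.27, SE 0.24, adjusted p = 0.003). Of all 33 genes of antigen presentation, 13 fell and 3 rose.

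The interferon list separated the CIAKI rats. Mx1, an antiviral GTPase, stood at 13, 14.4 and 12.6 CPM in control and 9.56, 0.669 and 0.963 CPM in CIAKI rats (log2 fold change -2.13, SE 0.66, adjusted p = 0.028), so that CIAKI 1 was close to the controls and the other two CIAKI rats were more than 10-fold lower. Its call was lost in 7 of 15 alternatives that gave a value. Rsad2, the antiviral enzyme viperin, stood at 20.8, 15.2 and 15.6 CPM in control and 14.6, 7.22 and 3.96 CPM in CIAKI rats and did not pass (log2 fold change -1.07, SE 0.40, adjusted p = 0.061), with CIAKI 1 again highest of the CIAKI rats. Over the 19 tested genes of the list the mean difference from the control mean was 0.60 in CIAKI 1, -0.82 in CIAKI 2 and -1.10 in CIAKI 3. Of the list 3 fell and 1 rose, and without CIAKI 1 the number that fell was 10. Irf1, an interferon regulatory factor, was the member that rose, by 0.61. What set CIAKI 1 apart is not given in the labels and was not tested.

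Matrix genes were mostly lower. Of 32 collagen genes 19 fell and 2 rose (median -0.73), and of 27 other matrix genes 16 fell and 4 rose (median -0.68). Col15a1, a basement membrane collagen, stood at 17.3, 16.3 and 19.4 CPM in control and 1.82, 2.27 and 3.62 CPM in CIAKI rats (log2 fold change -2.41, SE 0.19, adjusted p = 5.8e-05). Col1a2, a chain of the main fibrillar collagen, stood at 109, 80.2 and 122 CPM in control and 34.7, 46 and 46.4 CPM in CIAKI rats (log2 fold change -1.26, SE 0.19, adjusted p = 0.0011), and Col4a3, of the glomerular basement membrane, fell by 0.74. Fbn1, fibrillin, and Bgn, biglycan, fell by 1.31 and 1.11. The crosslinking enzymes moved apart. Lox stood at 7.55, 9 and 8.56 CPM in control and 31.9, 33.9 and 18.1 CPM in CIAKI rats (log2 fold change 1.58, SE 0.21, adjusted p = 0.00055), above the controls in all 3 CIAKI rats, and its relative Loxl1 fell by 1.21 (25.5, 24.3 and 28 CPM in control and 11.4, 11.2 and 9.35 CPM in CIAKI rats). Mesenchymal cell markers changed in few cases, 3 lower and 1 higher of 13, and 6 were lower without CIAKI 3.

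Markers of red cells and of fat differed between control rats. The summed erythroid level was 1417, 237 and 258 CPM in control and 2584, 2593 and 2114 CPM in CIAKI rats. Control 1 thus lay between the other controls and the CIAKI rats. Of 5 erythroid genes 4 passed, but only 1 did with edgeR on recovered reads or with any single library other than control 1 left out. The summed level of the 7 fat cell genes listed was 106, 51.6 and 40.2 CPM in control and 26.9, 39 and 52.9 CPM in CIAKI rats, highest in control 1, and none of the 5 tested passed in limma. Blood left in the tissue and the fat taken with it are not given in the labels, and their part in other results was not tested. The adrenal gene Cyp21a1 was at 1.45 CPM or below in each of the 6 libraries, but it was called lower. It stood at 0.63, 1.45 and 0.912 CPM in control and 0, 0.0297 and 0.0621 CPM in CIAKI rats (log2 fold change -0.93, SE 0.17, adjusted p = 0.0023). Among these libraries Cyp21a1 reached 1 CPM in control 2 alone, so it met the filter only with the icariin libraries.

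Transcription factors of the mature kidney gave a mixed picture. Of 16 tested 2 rose and 3 fell, and 11 did not pass, so neither count exceeded the 20.8% and 20.5% of all features. Hnf4a, the factor that maintains the proximal tubule, stood at 1292, 1183 and 1283 CPM in control and 1009, 657 and 1210 CPM in CIAKI rats (log2 fold change -0.43, SE 0.19, adjusted p = 0.1), with CIAKI 3 inside the control range. Leaving out CIAKI 3 gave an adjusted p of 0.02. Lhx1, a developmental factor, fell by 1.30. Nuclear receptors and their coactivators fell in 14 of 23 cases and rose in 1 (median -0.40). Without control 2, 9 of them were lower. Esr1, the estrogen receptor, stood at 127, 162 and 146 CPM in control and 18.3, 26.2 and 10.7 CPM in CIAKI rats (log2 fold change -2.99, SE 0.25, adjusted p = 6.8e-05). Thra, a thyroid hormone receptor, fell by 0.91 and Esrrg, a receptor of energy metabolism, by 0.91. Vdr, the vitamin D receptor, was the member that rose (0.42) and was picked out after its values were seen. Among glucocorticoid targets, 7 rose and 2 fell of 16. Zbtb16, a zinc finger repressor, stood at 1.37, 0.79 and 2.39 CPM in control and 30.5, 16.2 and 12.9 CPM in CIAKI rats (log2 fold change 3.01, SE 0.34, adjusted p = 0.00028), and Tsc22d3, known as GILZ, rose by 1.04. Of the 277 zinc finger genes as a family, 33 were higher and 41 lower, smaller shares than the 20.8% and 20.5% of all features. The higher count was 20 without control 1, and the lower count 27 without control 2.

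Clock genes lay in both directions. Of 19 tested 8 fell and 3 rose. Dbp, an output factor of the clock, stood at 114, 91.4 and 85.4 CPM in control and 24.9, 17.4 and 25.5 CPM in CIAKI rats (log2 fold change -2.06, SE 0.24, adjusted p = 0.00029), and Cry1, a repressor of the clock, stood at 6.12, 6.92 and 8.14 CPM in control and 27, 27.6 and 23.7 CPM in CIAKI rats (log2 fold change 1.75, SE 0.13, adjusted p = 4.1e-05). Nfil3, which opposes Dbp at the same sites, stood at 4.15, 5.5 and 6.25 CPM in control and 17.1, 47.7 and 14.9 CPM in CIAKI rats (log2 fold change 1.95, SE 0.41, adjusted p = 0.0049). The groups did not overlap in these 3 genes. Per1 rose by 0.71 and Npas2 fell by 1.08. The hour of tissue collection is not given in the labels used here, and a difference in hour between the groups was not tested. Without control 1 or without CIAKI 2, 5 clock genes were lower.

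One assembled feature, singled out after its values were seen, had the lowest log2 fold change of all. Rattus_norvegicus_newGene_32644 stood at 26.8, 1213 and 919 CPM in control rats and was at 0 reads in all 3 CIAKI rats. The control rats differed from each other by more than 10-fold, and with 3 rats a group an inherited difference between animals cannot be told apart from an effect of the protocol.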

How the data were processed

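Kidney RNA of 9 rats, 3 a group, was sequenced from Illumina TruSeq libraries made from 1 ug of total RNA, per the labels' protocols. Each group held 3 different rats, per the series design, so p-values rest on 3 rats a group. The submitters' processing notes name Bowtie 0.12.2 and mm8. The latter is a mouse build, but identifiers in the table are rat Ensembl genes, and the reference is thus not settled. Not given in the sources used here are the counter, strand setting, annotation release and handling of shared reads.

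The main table holds CPM as deposited by the authors, with no length term, so levels are not compared between genes. Values were whole multiples of a step per library (100% of values within 0.1 of a whole read), and these reads matched each of the 11925 counts of chosen mRNAs deposited for the CIAKI libraries. The libraries held 72982803, 69647764 and 75682092 counted reads in control and 83159767, 67284574 and 64380578 in CIAKI rats. The symbols of 25 features had become spreadsheet dates, and these features are not named. Tables of lncRNAs, circRNAs and miRNAs, which hold no control library, were not used.

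Since the table is in CPM, limma 3.58.1 (R 4.3.3) with an intensity trend was run on log2(CPM + 1) for features that reached 1 CPM in 3 or more of the 9 libraries. Group was the factor over all 9 libraries, with two-sided tests and Benjamini-Hochberg adjustment over 16731 features, with calls below 0.05. All adjusted p-values in the text are from limma unless another tool is named. The code was tested on simulated data. The 75 gene lists were described by counts and medians, with no test of a list. The members and lists were chosen with earlier results of these data known. Some genes are not reported here. Named genes are up to 15 called genes a direction with the largest fold change and no overlap, the 12 largest gains and losses in mean CPM, the 6 tested genes of lowest p in each list, and 25 kidney genes chosen by name. A list member outside that rule is named as one of 5 or fewer that moved against its list. Of 12401 tested genes with a symbol, 10120 matched a promoter in the RefSeq set of GRCr8, and motif letters were searched on both strands over 300 bases. The letters of the antioxidant element TGACNNNGC were not more frequent among genes at least 2-fold higher. They lay in 47 of 357 promoters (13.2%) of genes at least 2-fold higher and in 82 of 573 (14.3%) of those at least 2-fold lower. For all genes called higher the share was 408 of 2577 (15.8%), and for all called lower 306 of 2077 (14.7%). The share over all tested genes with a promoter was 1488 of 10120 (14.7%), and that of the NRF2 list 6 of 18 (33.3%). Of all these promoters, 94 held both the antioxidant element and the AP-1 letters, and in 38 the matches overlapped.

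Alternatives were pseudocounts of 0.1 and 0.5 CPM, no filter, a filter of 5 CPM, TMM and upper-quartile scaling, a fit of 6 libraries, edgeR 4.0.16 and DESeq2 1.42.0 on recovered reads, a replicate block, and each library left out in turn.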

Additional observations from a re-analysis of the deposited data

How the results depend on the processing

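Direction was stable in that 0 of the 6903 calls was a call in the opposite direction in any of 16 alternatives, and 0 of 447 named genes reversed. Of 412 named genes that were called, 392 kept the call in all alternatives and 20 lost it in at least 1, among them Umod, Cldn10, Aqp3, Mx1, Hbb and Mt-co2. The count of called features ran from 5524 to 7795, and from 5524 to 6533 with a library left out. The count changed at least 2-fold (1652) was 2499 with DESeq2 on recovered reads, and ran from 1534 to 1855 with a library left out. The lower part of it (1092) was 1732 with DESeq2 and 1647 with a pseudocount of 0.1 CPM, since a smaller pseudocount widens the fold of low features. The share of calls that were higher was 50.4%, between 47.9% and 55.7% in the alternatives, and the median of all features moved by at most 0.05.

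Replicate numbers are in the sample titles, but no label says that they pair rats. Control and CIAKI libraries of the same number had correlations of -0.035 to 0.051 between their deviations from the group means. With the icariin libraries included, pairs of the same number ran from -0.035 to 0.081 and other pairs from -0.1 to 0.036. The ranges overlapped, though the highest values were those of same-numbered pairs. Correlations this small, with so few libraries a group, do not show a pairing and cannot exclude it. A fit with the replicate number as a block called 6678 features, of which 6394 were called without it. The erythroid count of 4 went to 1 in that fit, without a filter and with edgeR. The depth of 64380578 to 83159767 reads leaves genes near 1 CPM with fewer than 100 reads a library.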
